A study of Mus musculus with 11 samples.

Results

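A set of 10 genes of the ATF4/ATF5 stress response and of serine and folate synthesis was followed in alveolar macrophages (AMs) with and without the nuclear receptors RXRα and RXRβ. They are Atf4, Atf5, Ddit3, Trib3, Chac1, Asns, Psat1, Phgdh, Mthfd2 and Shmt2. The genes were taken by symbol from the deposited table of 12932 genes, and 9 of the 10 have a row there. Chac1 has none and is not analysed here. The set was chosen by measured values of 2 genes. Atf5 and Mthfd2 stood on opposite sides of the control level in the 2 populations of Cre-positive mice, and their values are therefore given as a description with no test. The other genes were added for their known roles.

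The libraries hold polyA RNA of sorted AMs from 9-week-old C57BL/6J mice, 40000 cells each, read as single-end reads of 60 bases. Control mAMs (mAM_WT, 4 libraries) are mature AMs, gated as CD11b- and SiglecF+, of littermates with floxed Rxra and Rxrb (Rxrab fl/fl) and no Cre. RXR-deficient mAMs (mAM_KO, 4 libraries) came from the same gate in Cd11cCre+ Rxrab fl/fl mice. ImmAMs (Imm_KO, 3 libraries) are the CD11b+ SiglecF+ immature AMs of Cd11cCre+ Rxrab fl/fl mice. All groups thus carry the floxed alleles, and the Cre is driven by Cd11c (Itgax), which is active in AMs and also in dendritic cells. No ImmAMs of control mice are in the table, so the loss of RXRs and the immature state cannot be told apart in any comparison of ImmAMs with control mAMs. The study's text gives both bronchoalveolar lavage and lung digestion as the source of the cells. It used mice of both sexes and describes the replicates as separate biological samples. Its analysis counted 3 RXR-deficient mAM libraries. Replicate 4 of that group was left out of the tests here too, and its values are printed with the others.

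Each library held between 16659960 and 37873532 counted reads. All 8 AM markers examined were present, with a summed level of 18334 to 28467 CPM (reads scaled to library size) over the 11 libraries. A sum does not show single markers. Krt79, which is among the 8, was at 594 to 759 CPM in control mAMs and 116 to 402 CPM in RXR-deficient mAMs. In ImmAMs Krt79 was at 5.96 to 7.01 CPM. No marker of T cells, alveolar type 2 cells, endothelial cells or fibroblasts has a row in the table. The summed level of 5 monocyte and interstitial macrophage markers was 13.8 to 19.2 CPM in control mAMs, 22.2 to 43.9 CPM in RXR-deficient mAMs and 480 to 495 CPM in ImmAMs. That list includes Itgam, which encodes the CD11b of the gate, and Ly6c2, its sixth marker, has no row. The 4 neutrophil markers with a row summed to 6.38 to 11.2, 8.57 to 14.2 and 18.0 to 25.8 CPM in the same order, and Ly6g, the defining marker, has none. The part of these other markers in the results below was not tested. Rxra was at 310 to 380 CPM in control mAMs, 334 to 419 CPM in RXR-deficient mAMs and 283 to 305 CPM in ImmAMs, and Rxrb at 51.4 to 72.1, 39.3 to 55.3 and 31.9 to 35.2 CPM. The table holds 1 value per gene, in which reads from exons that Cre leaves in place are counted too, so these levels do not check the deletion. In bulk RNA, fewer cells of a type and less RNA per cell cannot be told apart.

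ATF4 is the transcription factor of the integrated stress response. When a kinase phosphorylates eIF2α, for example during amino acid shortage, misfolding in the endoplasmic reticulum or mitochondrial damage, general translation falls while the mRNAs of ATF4 and ATF5 are translated more. These factors then induce genes of amino acid uptake and synthesis, of tRNA charging and of feedback control. ATF4 also induces the serine pathway, in which PHGDH and PSAT1 catalyse steps from a glycolytic intermediate to serine. Its targets include the mitochondrial folate branch as well, in which SHMT2 and MTHFD2 pass the carbon of serine to folate. The amounts of ATF4 and ATF5 protein are set largely through translation, which mRNA levels do not measure.

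The element through which ATF4 acts with C/EBP partners is written TGATGNAA, with N for any base. It was searched on both strands of promoter windows of 300 bases, from 250 bases before to 50 bases after each start, taken from RefSeq (GRCm38.p6). All 10 genes had a window and 3 held a match, against 4.51% of all 27025 genes with a window (3.97% of all 32851 windows). These 3 stretches are shown because 2 of them belong to the genes of the set with the largest rise in ImmAMs and the other to the gene without a row. Each is read 5′ to 3′ along the gene's own strand, with the 8 matching letters in capitals. Distances are from the RefSeq start, which for Asns and Trib3 is not the boundary of the gene position given below.

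Asns, chr6:7693216-7693241, minus strand, 23 bases before the start: ccagccacaTGATGAAActtcccgca
Trib3, chr2:152344030-152344055, minus strand, 15 bases after the start, with the element on the opposite strand: agctcaggtTTACATCAgccgggcgg
Chac1, chr2:119351040-119351065, plus strand, 193 bases before the start, with the element on the opposite strand: tccctgccgTTGCATCActcctgcca

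The windows of Atf4, Atf5, Ddit3, Psat1, Phgdh, Mthfd2 and Shmt2 did not hold these letters. A match is a description of the sequence and not evidence that a factor binds there.

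Levels between genes were compared as CPM per kilobase of exon (RPKM), which corrects for length. In control mAMs (n = 4) the order was Phgdh at 66.9 ± 5.04 (SD), Atf4 at 46.2 ± 1.72, Atf5 at 14.9 ± 2.37 and Shmt2 at 9.81 ± 0.830 RPKM. Mthfd2 at 5.22 ± 0.624, Ddit3 at 5.15 ± 0.952 and Psat1 at 4.16 ± 0.225 RPKM followed. Asns at 0.894 ± 0.0938 and Trib3 at 0.717 ± 0.0482 RPKM came last. Mthfd2 and Ddit3 lay within each other's spread, and the other neighbours were further apart than 1 SD of either. In ImmAMs (n = 3), Atf5 at 28.3 ± 3.93 RPKM stood above Phgdh at 19.7 ± 2.24 RPKM, and Psat1 was the lowest at 1.11 ± 0.181 RPKM. Levels of Phgdh are uncertain, because 43.3% of the 60-base windows of its transcripts also occur in other genes, most of them predicted gene models, with Phgdh-ps1 among them.

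Among the transcription factors, Atf5 is described without a test, since its values chose the set, and Atf4 and Ddit3 were tested. Atf5 (chromosome 7, 44812256 to 44816658, GRCm38) was at 23.1, 30.9, 30.3 and 34.4 CPM in control mAMs, at 10.1, 20.7, 9.11 and 17.5 CPM in RXR-deficient mAMs and at 52.1, 65.4 and 51.6 CPM in ImmAMs. All 4 RXR-deficient libraries were below every control library, and all 3 ImmAM libraries were above. The log2 difference from control mAMs was -1.25 in RXR-deficient mAMs and 0.93 in ImmAMs, that is 2.37-fold lower and 1.91-fold higher. ImmAMs stood 4.52-fold above RXR-deficient mAMs. Of its exon bases, 82 overlap Nup62 and Il4i1 on the opposite strand, and the strand setting of the counting is not given in the sources used here.

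Atf4 (chromosome 15, 80255184 to 80257541) was at 107, 110.1, 105 and 114 CPM in control mAMs, at 94.5, 108, 92.1 and 104 CPM in RXR-deficient mAMs and at 108, 109.9 and 115 CPM in ImmAMs. The groups overlapped. In limma's fit over all genes, the log2 difference of RXR-deficient from control mAMs was -0.15 ± 0.07 (SE, 95% interval -0.31 to 0.00, adjusted p = 0.215). That of ImmAMs from control mAMs was 0.03 ± 0.07 (interval -0.13 to 0.18, adjusted p = 0.769). Atf4 mRNA was thus not called in either comparison. Atf5 was chosen for its differences in both, so nothing is read from a contrast of the 2 genes. The difference between ImmAMs and RXR-deficient mAMs, 0.18 on the log2 scale, was not called either (adjusted p = 0.0786), but it was called with quantile normalization (adjusted p = 0.0272) and without RXR-deficient replicate 2 (adjusted p = 0.0211).

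Ddit3 (chromosome 10, 127290774 to 127296288), which encodes the stress-induced factor CHOP, was at 7.62, 8.67, 7.83 and 11.2 CPM in control mAMs, at 8.05, 11.2, 9.45 and 12.4 CPM in RXR-deficient mAMs and at 16.3, 16.7 and 13.5 CPM in ImmAMs. The mature groups overlapped, while each ImmAM library was above all of them. Ddit3 rose in ImmAMs by 0.82 ± 0.17 on the log2 scale, or 1.77-fold (limma, adjusted p = 0.00139), and its difference in RXR-deficient mAMs was 0.12 ± 0.17 (interval -0.24 to 0.49, adjusted p = 0.700). Of its exon bases, 105 overlap a second gene model named Ddit3 on the same strand and 68 overlap Mars on the opposite strand.

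**Figure D1:**
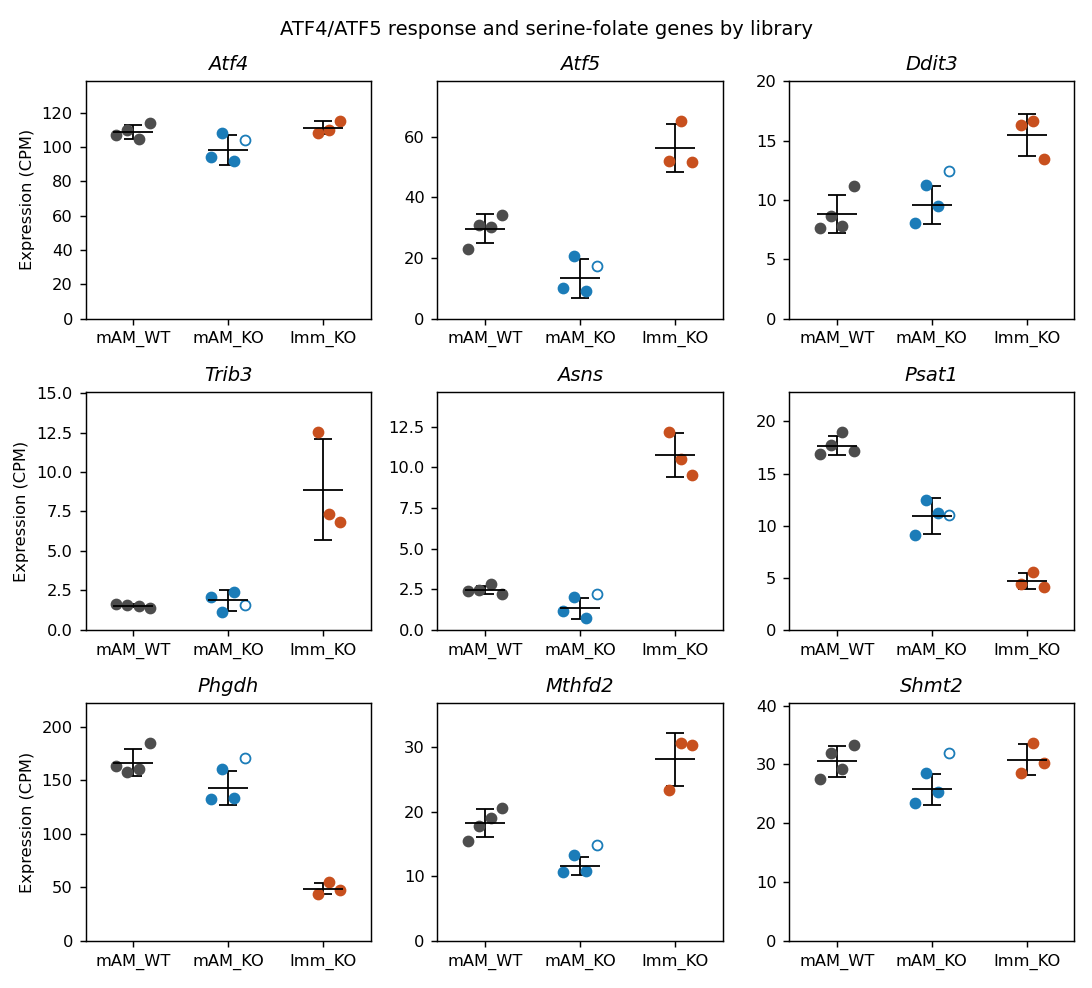
Expression of the 9 genes in CPM (y axes, from 0) by group (x axes). Each point is a library, the open point is mAM_KO replicate 4, and the bars give the mean ± SD of the other libraries of each group. Atf5 and Mthfd2 lie below mAM_WT in mAM_KO and above it in Imm_KO, Psat1 is below mAM_WT in both, and Trib3 and Asns stand apart in Imm_KO.

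Trib3 and Asns, both known targets of ATF4, were low in mature AMs and rose in ImmAMs. Trib3 (chromosome 2, 152337422 to 152344032), a pseudokinase that feeds back on ATF4, was at 1.62, 1.59, 1.48 and 1.40 CPM in control mAMs, at 2.05, 1.13, 2.41 and 1.58 CPM in RXR-deficient mAMs and at 12.5, 7.31 and 6.80 CPM in ImmAMs. The RXR-deficient libraries lay on both sides of the control libraries, and the ImmAM libraries were all far above. The rise in ImmAMs was 2.49 ± 0.31 on the log2 scale, or 5.62-fold (limma, adjusted p = 2.55e-05). The difference in RXR-deficient mAMs was 0.22 ± 0.31 (interval -0.46 to 0.90, adjusted p = 0.708). The control libraries held 28 to 61 reads of Trib3 each.

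Asns (chromosome 6, 7675169 to 7693254), asparagine synthetase, was at 2.36, 2.43, 2.80 and 2.19 CPM in control mAMs, at 1.18, 2.02, 0.748 and 2.18 CPM in RXR-deficient mAMs and at 12.2, 10.5 and 9.53 CPM in ImmAMs. It shared the direction of Atf5 in both populations, although RXR-deficient replicate 4 lay just under the lowest control library. Asns rose 4.39-fold in ImmAMs, by 2.13 ± 0.30 on the log2 scale (limma, adjusted p = 7.26e-05). In RXR-deficient mAMs the log2 difference was -1.01 ± 0.30 (interval -1.66 to -0.35) and missed the threshold (adjusted p = 0.0722), on 13 to 47 reads per library. It was called by DESeq2 (adjusted p = 0.0400) and without RXR-deficient replicate 2 (limma, adjusted p = 0.0109), and with replicate 4 included the adjusted p was 0.230.

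Phgdh and Psat1, the serine synthesis enzymes of the set, were lower in ImmAMs, the opposite of Trib3 and Asns. Phgdh (chromosome 3, 98313170 to 98339990), the first enzyme of the pathway, was at 163, 157, 160.2 and 185 CPM in control mAMs, at 133, 161, 134 and 170.4 CPM in RXR-deficient mAMs and at 44.0, 55.0 and 47.8 CPM in ImmAMs. The 2 mature groups overlapped, and every ImmAM library was below both. Phgdh fell 3.41-fold in ImmAMs, a log2 difference of -1.77 ± 0.10 (limma, adjusted p = 1.18e-08), while in RXR-deficient mAMs the difference was -0.23 ± 0.10 (interval -0.44 to -0.02, adjusted p = 0.170).

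Psat1 (chromosome 19, 15904678 to 15947337), the aminotransferase that acts after PHGDH, was at 16.8, 17.8, 19.0 and 17.2 CPM in control mAMs, at 9.07, 12.5, 11.2 and 11.1 CPM in RXR-deficient mAMs and at 4.44, 5.59 and 4.12 CPM in ImmAMs. The 3 groups did not overlap. Psat1 fell 3.78-fold in ImmAMs (log2 difference -1.92 ± 0.15, limma, adjusted p = 3.43e-07) and 1.64-fold in RXR-deficient mAMs (-0.71 ± 0.15, adjusted p = 0.0230). The latter call was lost without control replicate 2 or 3, without RXR-deficient replicate 1 or 3, without a variance trend and with the replicate number as a block, at adjusted p values of up to 0.0947. It held with replicate 4 included.

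The remaining genes are the 2 enzymes of the folate branch. Mthfd2 (chromosome 6, 83305691 to 83325908), the mitochondrial dehydrogenase and cyclohydrolase, was at 15.4, 17.8, 19.0 and 20.6 CPM in control mAMs, at 10.7, 13.2, 10.8 and 14.8 CPM in RXR-deficient mAMs and at 23.3, 30.6 and 30.3 CPM in ImmAMs. No library of either group overlapped the control libraries. The log2 difference was -0.65 in RXR-deficient mAMs, or 1.57-fold lower, and 0.62 in ImmAMs, or 1.54-fold higher. Shmt2 (chromosome 10, 127517123 to 127522444), the serine hydroxymethyltransferase of mitochondria, was at 27.6, 31.9, 29.3 and 33.3 CPM in control mAMs, at 23.4, 28.6, 25.2 and 31.9 CPM in RXR-deficient mAMs and at 28.5, 33.7 and 30.3 CPM in ImmAMs. Its groups overlapped throughout. The log2 difference of Shmt2 was -0.25 ± 0.10 (interval -0.47 to -0.02, adjusted p = 0.174) in RXR-deficient mAMs and 0.01 ± 0.10 (interval -0.21 to 0.24, adjusted p = 0.923) in ImmAMs.

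Leaving out the 2 genes that chose the set, 7 genes were tested. In RXR-deficient mAMs 1 of the 7 was called (Psat1, lower), and 4.84% of all 12889 genes tested were called. In ImmAMs against control mAMs, 5 of the 7 were called, with Ddit3, Trib3 and Asns higher and Psat1 and Phgdh lower, and 48.1% of all genes were called. ImmAMs against RXR-deficient mAMs gave the same directions, with Ddit3 at a log2 difference of 0.70, Trib3 at 2.27, Asns at 3.14, Psat1 at -1.21 and Phgdh at -1.54, all called (largest adjusted p 0.00813, for Ddit3), and 37.9% of all genes were called. The call of Ddit3 there was lost with the replicate number as a block (adjusted p = 0.0502). Since the set was put together with results of these comparisons known and 2 of the comparisons share the control mAMs, nothing is read from these shares. Without regard to the test, 20.1% of all genes had no overlap between RXR-deficient and control mAM libraries, and 51.3% had none between ImmAM and control mAM libraries.

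**Figure D2:**
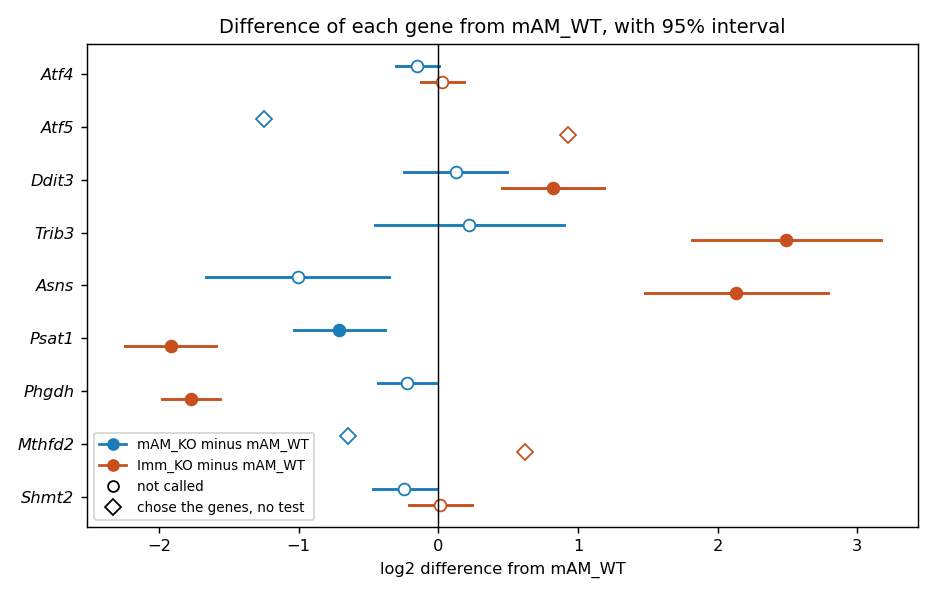
Log2 difference of each gene (y axis) from mAM_WT, with the 95% interval from limma, in mAM_KO (blue) and Imm_KO (orange). Filled points were called, open circles were not, and diamonds without an interval mark Atf5 and Mthfd2, at -1.25 and -0.65 in mAM_KO and at 0.93 and 0.62 in Imm_KO.

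The RXR-deficient mAM libraries were not alike. Replicates 1 and 3 had 7 of the 9 genes below every control library, namely Atf4, Atf5, Asns, Psat1, Phgdh, Mthfd2 and Shmt2, and replicates 2 and 4 had 5 each. Of all 12889 genes, 27.0% and 30.1% were below every control library in replicates 1 and 3 and at least 20.2% in the other 2, and the 9 include Atf5 and Mthfd2, so nothing is read from these counts. Atf5, Asns, Psat1 and Mthfd2 were below every control library in all 4. The share of all genes that were so in all 4 was not computed, so nothing is read from this either. Relative to the mean of the control libraries, Atf5 stood at -1.54 and -1.69 on the log2 scale in replicates 1 and 3, and at -0.50 and -0.75 in replicates 2 and 4. Other genes also varied between these libraries, not all of them in the order of Atf5. Rxra was at 347, 334, 351 and 419 CPM in replicates 1 to 4. Rxrb was at 46.3, 52.8, 39.3 and 55.3 CPM in replicates 1 to 4, and Krt79, an AM gene, at 181, 402, 116 and 217 CPM, against 594 to 759 CPM in control mAMs. Itgam was at 7.87, 3.93, 9.95 and 7.81 CPM in the same 4 libraries and at 3.52 to 3.85 CPM in control mAMs. The part of these differences between libraries in the values of Atf5 was not tested.

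In each of the 3 ImmAM libraries, Atf5, Ddit3, Trib3, Asns and Mthfd2 were above every control library and Psat1 and Phgdh below every one. Of all genes, 35.1% to 36.5% were below every control library and 34.1% to 35.3% above. These shares are for single ImmAM libraries, not for all 3 together. The genes named include Atf5 and Mthfd2, whose values chose the set, so nothing is read from these counts. Trib3 in replicate 2, at 3.04 above the control mean on the log2 scale against 2.26 and 2.16 in the others, was the widest departure.

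**Figure D3:**
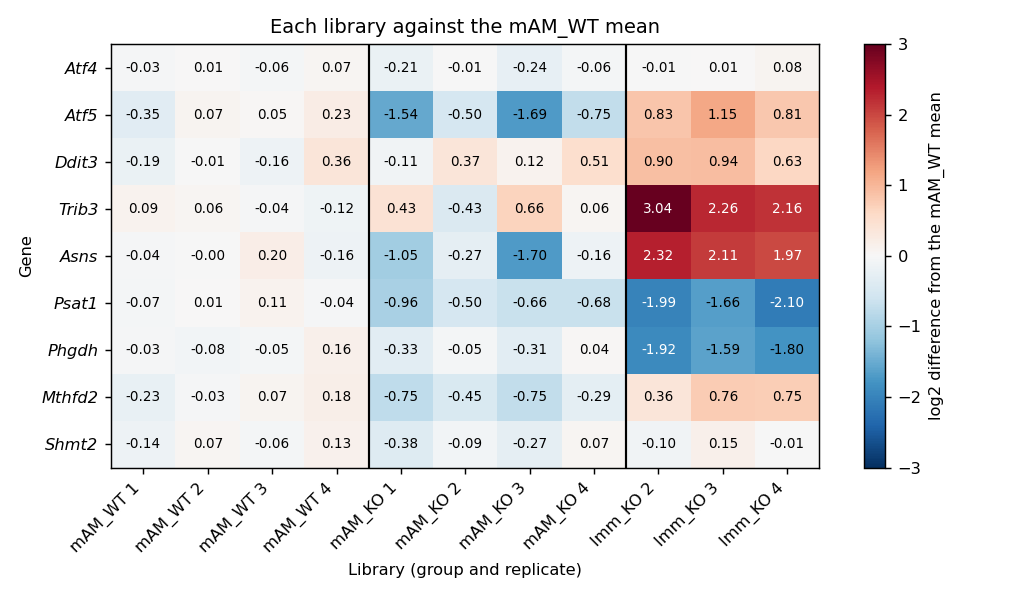
Log2 difference of each gene (rows) in each library (columns) from the mean of the 4 mAM_WT libraries, in colour (red higher, blue lower) and as numbers. Atf5 is at -1.54 and -1.69 in mAM_KO 1 and 3 and at 0.83, 1.15 and 0.81 in the Imm_KO libraries, and Psat1 is negative in all 7 libraries of Cre-positive mice.

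The genes whose log2 levels were most like those of Atf5 over the 11 libraries, among the 8742 genes that averaged 10 CPM or more, were Mthfd2 (Pearson's r = 0.966, a pair whose shared order of the groups chose the set), Fabp5 (0.960), Steap3 (0.958), Kifc3 (0.958) and Fasn (0.952). For Mthfd2 they were Kifc3 (0.975), Atf5 (0.966), Steap3 (0.955), Srebf2 (0.948) and Fasn (0.945). Fasn, the fatty acid synthase, had means of 105 CPM in control mAMs, 73.1 CPM in RXR-deficient mAMs and 123 CPM in ImmAMs. Srebf2, which encodes the sterol-responsive factor SREBP2, had means of 165, 119 and 246 CPM in that order, and Fabp5, a fatty acid binding protein, of 233, 192 and 292 CPM. Kifc3 had means of 23.4, 14.7 and 36.2 CPM and Steap3 of 13.6, 8.64 and 18.4 CPM in the same order. These libraries form 3 groups, so the values describe a shared order of the groups. Within the set, r with Atf5 was 0.925 for Asns, 0.852 for Atf4, 0.723 for Shmt2, 0.630 for Ddit3, 0.592 for Trib3, -0.425 for Psat1 and -0.634 for Phgdh.

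The genes of 6 related lists were counted beside the set. Of 32 known ATF4 targets outside it, 22 have a row. In RXR-deficient mAMs 1 of the 22 was higher and 3 were lower (median log2 difference -0.05, against 0.00 over all genes), where 2.25% of all genes were called higher and 2.59% lower. In ImmAMs 10 were higher and 7 lower (median 0.19, against 0.00), where 22.8% of all genes were called higher and 25.3% lower. The targets thus did not move in 1 direction.

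The 3 targets of smallest adjusted p in RXR-deficient mAMs were amino acid transporters. Slc7a5, the large neutral amino acid transporter LAT1, was at 77.1, 74.3, 75.4 and 79.7 CPM in control mAMs, at 44.8, 44.4, 41.3 and 53.8 CPM in RXR-deficient mAMs and at 23.5, 27.6 and 20.3 CPM in ImmAMs. It fell by 0.82 ± 0.10 on the log2 scale in RXR-deficient mAMs (limma, adjusted p = 0.00126) and by 1.70 ± 0.10 in ImmAMs (adjusted p = 1.82e-08). Slc7a11, the cystine transporter xCT, went the other way, at 64.5, 58.5, 48.2 and 54.4 CPM in control mAMs, 97.3, 90.8, 95.7 and 72.9 CPM in RXR-deficient mAMs and 155, 143 and 147 CPM in ImmAMs. It rose by 0.75 ± 0.09 in RXR-deficient mAMs (adjusted p = 0.00129) and by 1.40 ± 0.09 in ImmAMs (adjusted p = 4.89e-08). Slc7a1, a cationic amino acid transporter, had the pattern of Atf5. Its mean was 32.1 CPM in control mAMs, 22.1 CPM in RXR-deficient mAMs (log2 difference -0.56 ± 0.13, adjusted p = 0.0355) and 43.1 CPM in ImmAMs (0.43 ± 0.13, adjusted p = 0.0166). The rise of Slc7a1 was not called without ImmAM replicate 4 (adjusted p = 0.0554).

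Got1, the cytosolic aspartate aminotransferase, rose 3.18-fold in ImmAMs, from a mean of 18.4 to 58.3 CPM (log2 difference 1.67 ± 0.14, adjusted p = 6.43e-07). Cebpb, a partner of ATF4 and the list's most abundant gene, was lower in ImmAMs by 0.89 ± 0.21 on the log2 scale (means 741 and 382 CPM, adjusted p = 0.00380). In RXR-deficient mAMs Cebpb was at 403, 458, 346 and 833 CPM, against 486 to 987 CPM in control mAMs, with a log2 difference of -0.82 ± 0.21 (adjusted p = 0.0462). With replicate 4 included, that call was lost (adjusted p = 0.344).

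The promoters of 10 of the 26 listed targets with a window held the ATF4 letters, Slc7a11 and Got1 among them. Those of 5 of 12 tRNA synthetases did too, and no window of the other 4 lists did. A site of each of these 2 targets is shown because Slc7a11 and Got1 rose in ImmAMs. Slc7a11 has a further match, 47 bases before the start, that is not shown.

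Slc7a11, chr3:50443663-50443688, minus strand, 66 bases before the start: tcatgtggcTGATGCAAacctggaga
Got1, chr19:43524691-43524716, minus strand, 102 bases before the start, with the element on the opposite strand: ttgcattggTTGCATCAtacaagcct

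Of the 11 ATF4 targets and synthetases with a match that were tested, 2 were higher and 3 lower in ImmAMs (median log2 difference -0.10). Of the 19 with a window but no match, 7 were higher and 6 lower (median -0.14). Over all genes, 22.8% were higher and 25.3% lower in ImmAMs. In RXR-deficient mAMs, 1 was higher and 1 lower with a match, and 0 were higher and 2 lower without. There, 2.25% of all genes were higher and 2.59% lower. Nothing is read from these counts.

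The rest of serine, glycine and folate metabolism had calls in both directions in ImmAMs. Of 27 genes, none was called higher and 2 were called lower in RXR-deficient mAMs by limma (median log2 difference -0.15), and 6 were higher and 7 lower in ImmAMs (median -0.17). These shares in ImmAMs are close to those of all genes, 22.8% higher and 25.3% lower. At an unadjusted p under 0.05, 0 were higher and 5 lower in RXR-deficient mAMs, and edgeR, DESeq2 and voom called 0 higher and 2 lower. Over all 12889 genes, 3042 had an unadjusted p under 0.05 in that comparison, and limma called 2.25% higher and 2.59% lower. Counts over all genes were 289 higher and 277 lower with edgeR, 602 and 750 with DESeq2, and 240 and 288 with voom. Aldh1l1, the cytosolic formyltetrahydrofolate dehydrogenase, was at 7.15, 6.05, 7.68 and 7.15 CPM in control mAMs, at 2.33, 4.82, 1.36 and 3.46 CPM in RXR-deficient mAMs and at 4.20, 4.75 and 5.33 CPM in ImmAMs. It fell by 1.49 ± 0.33 on the log2 scale in RXR-deficient mAMs (adjusted p = 0.0272), and its difference in ImmAMs was -0.56 ± 0.33 (adjusted p = 0.184). Gart, of purine synthesis, was lower in RXR-deficient mAMs by 0.27 ± 0.07 (adjusted p = 0.0410).

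Sfxn3, a mitochondrial serine carrier, rose in ImmAMs by 0.71 ± 0.07 on the log2 scale (means 135 and 220.3 CPM, adjusted p = 2.59e-06). Mat2a, the methionine adenosyltransferase and the most abundant gene of the list, was not called in either population (log2 differences 0.03 and -0.17, adjusted p = 0.868 and 0.0829). Markers of cycling cells differed in the same direction as Psat1 and Phgdh. Their summed level over 8 genes was 515 to 631 CPM in control mAMs, 447 to 538 CPM in RXR-deficient mAMs and 129 to 143 CPM in ImmAMs, and their part in the serine and folate values was not tested.

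The upstream kinases and regulators of the integrated stress response came next. None of the 17 genes was called in RXR-deficient mAMs by limma (median log2 difference 0.01), and 3 were higher and 5 lower in ImmAMs (median -0.10, where 22.8% of all genes were higher and 25.3% lower). In RXR-deficient mAMs 1 was higher at an unadjusted p under 0.05, DESeq2 called Eif2ak3 higher, and edgeR and voom called 0. Over all 12889 genes, 3042 were under that unadjusted p, and DESeq2 called 602 higher. Ppp1r15a, which encodes GADD34 and is also listed as an ATF4 target, rose 1.98-fold in ImmAMs, from a mean of 8.91 to 17.6 CPM (log2 difference 0.99 ± 0.13, adjusted p = 3.33e-05). Ppp1r15b, its constitutive counterpart and the most abundant gene of this list, fell by 0.34 ± 0.05 (adjusted p = 0.000232). Eif2s1, which encodes eIF2α, fell by 0.44 ± 0.09 (adjusted p = 0.00202).

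The 20 cytosolic aminoacyl-tRNA synthetases, which charge tRNAs with amino acids and include known ATF4 targets, were counted in the same way. In RXR-deficient mAMs 2 were lower and none higher by limma (median log2 difference -0.11), where 2.59% of all genes were lower. These were Aars at -0.29 ± 0.07 (adjusted p = 0.0384) and Vars at -0.32 ± 0.08 (adjusted p = 0.0458). No synthetase was higher at an unadjusted p under 0.05, while 7 were lower, and DESeq2, edgeR and voom called 4, 2 and 1 lower and 0 higher. Over all 12889 genes, 3042 were under that unadjusted p, and DESeq2, edgeR and voom called 750, 277 and 288 lower. Aars shares 1326 exon bases with Exosc6 on the same strand. In ImmAMs 8 were lower and 1 higher (median -0.17), where 25.3% of all genes were lower and 22.8% higher. Among the lower ones were Gars at -0.50 ± 0.07, Farsa at -0.46 ± 0.07 and Hars at -0.48 ± 0.07 (largest adjusted p of these 1.60e-04).

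Of 14 mitochondrial chaperones and proteases, none was higher and 1 was lower in RXR-deficient mAMs, Afg3l2, a protease of the inner membrane (log2 difference -0.28 ± 0.07, adjusted p = 0.0370). At an unadjusted p under 0.05, 0 were higher and 3 lower, and DESeq2, edgeR and voom called 2, 1 and 1 lower and 0 higher. Over all 12889 genes, 3042 were under that unadjusted p, and limma called 2.59% lower. DESeq2, edgeR and voom called 750, 277 and 288 of all genes lower. In ImmAMs 1 was higher and 5 were lower (median -0.20), where 22.8% of all genes were higher and 25.3% lower. Afg3l2 fell by 0.55 ± 0.07 (adjusted p = 2.16e-05) and the import factor Grpel1 by 0.80 ± 0.09 (adjusted p = 9.47e-06), while the protease Htra2 rose by 0.59 ± 0.11 (adjusted p = 0.000626). Hspa9, the most abundant gene of this list, was not called (-0.10 and -0.11).

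Of 20 genes of the unfolded protein response of the endoplasmic reticulum, none was called in RXR-deficient mAMs by limma (median log2 difference 0.08), and 3 were higher and 5 lower in ImmAMs (median -0.11, where 22.8% of all genes were higher and 25.3% lower). In RXR-deficient mAMs 5 were higher and 0 lower at an unadjusted p under 0.05, DESeq2 called Dnajc3 and Hspa5 higher, and edgeR and voom called 0. Over all 12889 genes, 3042 were under that unadjusted p, and DESeq2 called 602 higher. The sensor Ern1 rose by 0.68 ± 0.10 in ImmAMs (adjusted p = 8.44e-05). Its effector Xbp1 fell by 0.56 ± 0.07 (adjusted p = 3.83e-05), the chaperone cofactor Dnajb9 by 0.80 ± 0.12 (adjusted p = 0.000112) and the abundant chaperone Calr by 0.29 ± 0.07 (adjusted p = 0.00277). Genes of dissociation stress summed to 400.1 to 553 CPM in control mAMs, 402 to 647 CPM in RXR-deficient mAMs and 482 to 522 CPM in ImmAMs, ranges that overlap.

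Of the 9 named calls in these lists for RXR-deficient mAMs, those of Slc7a5 and Slc7a11 held under every alternative run. The other 7 (Slc7a1, Cebpb, Aldh1l1, Gart, Aars, Vars and Afg3l2) were each lost in 8 to 15 of 23 alternatives, at adjusted p values of up to 0.344. All 7 were lost without RXR-deficient replicate 1 (adjusted p 0.0623 to 0.130).

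**Figure D4:**
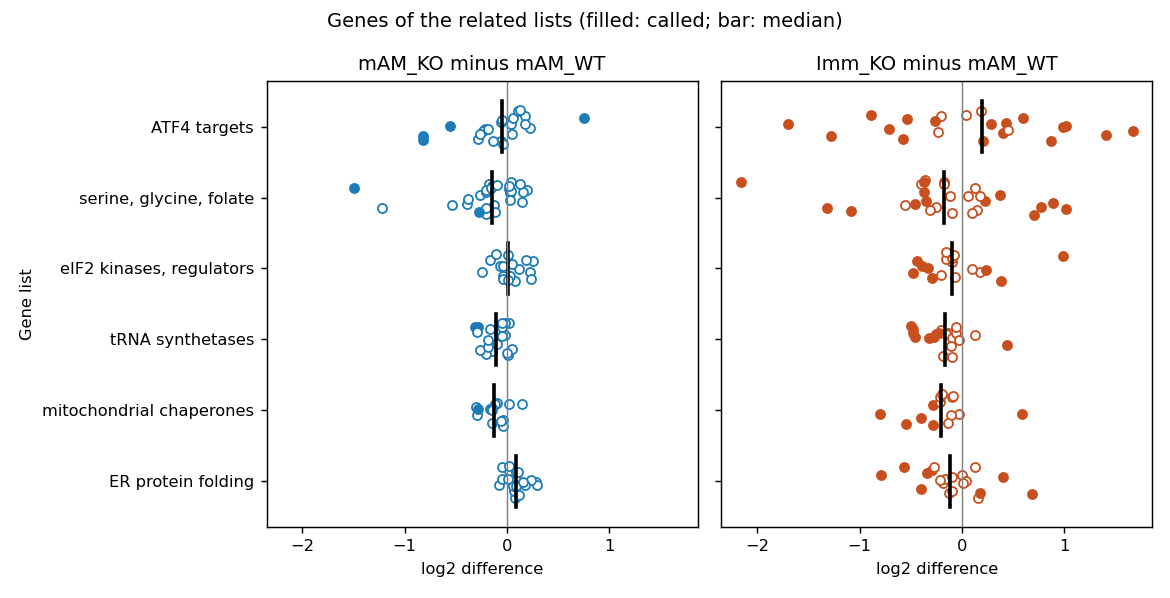
Log2 difference from mAM_WT (x axes) of each gene in the 6 related lists (rows), in mAM_KO (left) and Imm_KO (right). Filled points were called, and the black bars are the medians, at -0.05 and 0.19 for the ATF4 targets and at -0.15 and -0.17 for serine, glycine and folate genes.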

How the data were processed

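RNA of 11 libraries was analysed. The authors trimmed reads with Cutadapt, quantified them with RSEM 1.3.1 against the GRCm38 transcriptome and scaled libraries by TMM in limma, keeping those that reached 1 CPM in 3 samples. The deposited values are CPM, each a read count plus 0.5 times a fixed step, and whole reads were recovered within 0.01 for 100% of them. Log2 values of 10 libraries (without mAM_KO replicate 4) were fitted in limma 3.58.1 (R 4.3.3, group means, variance trend) over the 12889 genes that reached 1 CPM in 3 of them. Tests were two-sided, and a gene with a Benjamini-Hochberg adjusted p (over all genes) under 0.05 is called. edgeR 4.0.16 (quasi-likelihood), DESeq2 1.42.0 and voom were run on the recovered reads. Other alternatives were all 11 libraries, further pseudocounts of 0.1 and 1, no filter, a 5 CPM filter, median-ratio and quantile scaling, 2 groups only, no trend, a replicate block and each library left out. limma, edgeR, DESeq2 and voom were also run on simulated reads of RXR-deficient and control mAMs, with the same dispersion for every gene. That run does not test the other alternatives or the spread between libraries seen here. Positions and exon lengths are from GENCODE vM21 on GRCm38.

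The members and lists were chosen with earlier results of these data known, and 2 listed names were changed to the table's spelling. Named list genes are, per comparison with mAM_WT, the 3 called genes of smallest adjusted p and the list's most abundant gene. Some genes that this rule selects are not reported here, and the counts include them. Likeness was ranked by Pearson's r. Depth sets counting error only.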

Additional observations from a re-analysis of the deposited data

How the results depend on the processing

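The number of genes called between RXR-deficient and control mAMs was 624, and it fell to 337 with all 11 libraries, 195 with only the 2 groups, 122 without a variance trend and 174 with the replicate number as a block, rose to 1352 with DESeq2, and ranged from 163 to 861 when each library was left out. It was 220, 327 and 350 without control replicates 2, 3 and 4, 210 and 163 without RXR-deficient replicates 1 and 3, and 351, 385 and 369 without ImmAM replicates 2, 3 and 4. The counts for ImmAMs stayed within 1.5 times their values of 6194 (against control mAMs) and 4891 (against RXR-deficient mAMs), with 5205 to 6311 and 4105 to 5282 when a library was left out. Libraries of the same replicate number showed no clear likeness in the pairs compared. The correlations of their deviations ran from -0.13 to 0.06, and 2 of 6 mature libraries correlated best with their own number. Between RXR-deficient mAMs and ImmAMs only replicates 2 and 3 were compared (0.06 and -0.03). Whether these groups came from the same mice cannot be told from so few pairs. The block ended the calls of Psat1, Slc7a1, Cebpb, Aldh1l1, Gart, Aars, Vars and Afg3l2 in RXR-deficient mAMs and that of Ddit3 between ImmAMs and RXR-deficient mAMs. Atf5 and Mthfd2 kept their directions under all 23 alternatives, but these directions chose the set, so nothing is read from this. Atf5 lay between -1.62 and -1.02 in RXR-deficient mAMs and between 0.82 and 1.01 in ImmAMs.

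Differences near 0 changed sign. Trib3 in RXR-deficient mAMs came to -0.00045 without RXR-deficient replicate 3, and up to 0.549 without replicate 2. Shmt2 in ImmAMs came to -0.0358 with the block, and ranged from -0.0515 without ImmAM replicate 3 to 0.0693 without ImmAM replicate 2, with -0.0331 and -0.00452 without control replicates 1 and 3. In RXR-deficient mAMs, Mat2a came to -0.0171 with all 11 libraries and to -0.0684 and 0.0914 without replicates 2 and 1, and Ppp1r15b to -0.0122 with all 11. With all 11 libraries the calls of Gart, Cebpb, Aars, Vars and Afg3l2 in RXR-deficient mAMs were also lost. The cause of these changes was not tested. Depth was low for Asns, Trib3 and Aldh1l1, at 13 to 89, 26 to 61 and 24 to 270 reads per mature library.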
